A study of Mus musculus with 9 samples.

Results

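The suppressor of cytokine signalling genes Socs1, Socs2, Socs3 and Cish were followed in sorted mouse tumour macrophages. The 4 genes were chosen by symbol; all 4 were among the 18042 genes of the deposited table, and all 4 were among the 13090 genes that passed the filter on low counts and were tested. Poly(A)-selected RNA was sequenced from CD11b+ F4/80+ cells sorted from subcutaneous tumours of MC38, a mouse colon carcinoma line, grown in wild-type female C57BL/6 mice 6 to 8 weeks old at injection. Mice were randomised on day 9 to intratumoral IN@OMVs, to intratumoral OMVs or, as Control, to the same volume of solvent, which another label calls PBS. Both vesicle preparations were dosed by vesicle protein at 12.5 µg per mouse, or 625 µg per kg. The labels do not spell out IN@OMVs or OMVs, and do not give the bacterial strain, the number of doses or the day of harvest. Each group had 3 libraries, labelled as biological replicates; whether a library came from 1 mouse or from a pool is not given, so p-values measure the spread between these libraries. Total counts per library were 16813230 to 17288322, and Adgre1, which encodes F4/80, and Itgam, which encodes CD11b, were detected in all 9 libraries.

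SOCS proteins are feedback brakes on cytokine receptors that signal through Janus kinases (JAKs) and STAT transcription factors. Activated STATs switch on SOCS genes; the SOCS protein then docks on phosphotyrosines of the receptor or the kinase through its SH2 domain, and its SOCS box recruits a cullin ubiquitin ligase. SOCS1 and SOCS3 also carry a short region that blocks the kinase directly. In macrophages SOCS1 is best known for restraining interferon-γ signalling, SOCS3 for restraining IL-6, G-CSF and other receptors of the gp130 type, and CIS (the product of Cish) and SOCS2 for acting on STAT5-activating receptors.

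Promoter sequence is shown for Socs1, Socs3 and Cish, since these genes are read here as outputs of cytokine signalling. RefSeq promoters (GRCm38.p6, 250 bases before to 50 after the start site) were available for these 3 of the 4 members. Socs2 had none and was not searched. The search was for letters that STATs or interferon factors are known to bind. Capitals mark matches to the interferon-stimulated response element core (GAAA, any 2 bases, GAAA) in Socs1 and to the STAT site TTCNNNGAA, called GAS, in Socs3 and Cish; all are written 5′ to 3′ on the strand of the gene.
Socs1, chr16:10785537-10785786, minus strand, the 250 bases before the start: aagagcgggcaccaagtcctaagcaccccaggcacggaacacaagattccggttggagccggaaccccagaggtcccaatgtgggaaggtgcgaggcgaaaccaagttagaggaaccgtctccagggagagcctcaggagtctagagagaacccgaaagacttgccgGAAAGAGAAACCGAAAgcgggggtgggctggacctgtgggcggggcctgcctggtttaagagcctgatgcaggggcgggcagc
Socs3, chr11:117969367-117969616, minus strand, the 250 bases before the start: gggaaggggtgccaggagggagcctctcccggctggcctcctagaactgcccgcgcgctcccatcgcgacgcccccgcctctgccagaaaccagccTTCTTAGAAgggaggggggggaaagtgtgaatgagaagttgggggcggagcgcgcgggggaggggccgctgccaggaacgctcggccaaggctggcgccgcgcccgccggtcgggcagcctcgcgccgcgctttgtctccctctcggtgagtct
Cish, chr9:107296654-107296683, plus strand, 30 bases across the start: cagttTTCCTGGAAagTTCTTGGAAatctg
Both strands were searched. The Socs1 window held 2 response element cores that overlap each other, 83 to 74 and 77 to 68 bases before the start. The Socs3 window held 1 GAS, 154 to 146 bases before the start, and the Cish window held 2, at bases 1 to 9 and 12 to 20 after it. Among 32851 RefSeq promoter windows of the same 300 bases, 8.3% held at least 1 GAS and 0.457% held 2 or more; 3.44% held the response element core and 0.225% held 2 or more. The longer spacing preferred by STAT6, with any 4 bases between TTC and GAA, had no match in these 3 windows and was present in 6.95% of all windows. These matches describe the letters and do not show binding.

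Socs1 was higher in both vesicle groups, and higher after IN@OMVs than after OMVs. Its level, as CPM (counts scaled to library depth, with TMM-adjusted library sizes), was 36.2, 32.8 and 27.6 CPM in the IN@OMVs libraries, 17.7, 19.2 and 18.6 CPM in the OMVs libraries, and 11.4, 11.2 and 10.2 CPM in the Control libraries. The 3 groups formed separate bands with no overlap. These levels rest on 474 to 588 counts per library in IN@OMVs, 308 to 329 in OMVs and 177 to 191 in Control. The mean was 32.2 ± 4.35 CPM in IN@OMVs and 10.9 ± 0.631 CPM in Control (SD, n = 3 each), a log2 fold change of 1.56 ± 0.11 (SE; 95% interval 1.32 to 1.80) or 2.95-fold, with adjusted p = 0.0001 by edgeR's quasi-likelihood test with Benjamini-Hochberg adjustment over all genes tested. Socs1 ranked 21st of 13090 genes by p in that comparison. In the same fit OMVs averaged 18.5 ± 0.749 CPM (SD, n = 3) and stood 0.76 ± 0.11 (SE; 0.51 to 1.00) above Control on the log2 scale, 1.69-fold (edgeR adjusted p = 0.032). The OMVs call is near the threshold: the adjusted p was 0.0603 when the fit held a replicate block and 0.0639 with limma-voom. It passed in 1 of 9 fits that left out 1 library, the one without IN@OMVs 1 (0.00376), and missed in the other 8 (0.052 to 0.196), while the log2 change stayed between 0.71 and 0.79. Between the vesicle groups, IN@OMVs exceeded OMVs by 0.80 ± 0.10 (SE; 0.57 to 1.04) on the log2 scale, 1.74-fold (edgeR adjusted p = 0.00456).

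Socs3 went the other way after IN@OMVs and did not pass the test after OMVs. It measured 270.7, 214.7 and 217.7 CPM in the IN@OMVs libraries, 420.3, 487.7 and 492.4 CPM in the OMVs libraries, and 473.7, 444.9 and 423.9 CPM in the Control libraries. All 3 IN@OMVs libraries lay below every other library, while the OMVs and Control libraries overlapped. The mean was 234 ± 31.5 CPM in IN@OMVs and 448 ± 24.99 CPM in Control (SD, n = 3 each), a log2 change of -0.93 ± 0.10 (SE; -1.17 to -0.70; edgeR adjusted p = 0.00103), or 1.91-fold lower. Against OMVs, which averaged 467 ± 40.3 CPM (SD, n = 3), the log2 change was -0.99 ± 0.10 (SE; -1.23 to -0.76; edgeR adjusted p = 0.0016). OMVs and Control differed by 0.06 ± 0.10 on the log2 scale (SE; -0.17 to 0.29; edgeR adjusted p = 0.98), an interval that holds no change of more than 0.29 in either direction. Of the summed CPM of the 8 SOCS family genes, Socs3 made up 44.5% to 50.7% in IN@OMVs libraries, 64.2% to 67.6% in OMVs libraries and 65.0% to 66.2% in Control libraries.

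With both genes counted, 2 of the 4 members were called in IN@OMVs against Control, 1 higher and 1 lower, beside 6.55% of all 13090 genes (3.32% higher and 3.24% lower). In OMVs against Control 1 of 4 was called, in the higher direction, beside 0.420% of all genes (0.298% higher). In IN@OMVs against OMVs 2 of 4 were called, 1 in each direction, beside 2.85% (1.10% higher and 1.75% lower). The median log2 change of all genes tested was -0.0024, -0.00049 and -0.0035 in the same order. The comparisons share libraries, so the members' values in them are not independent of each other.

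**Figure D1:**
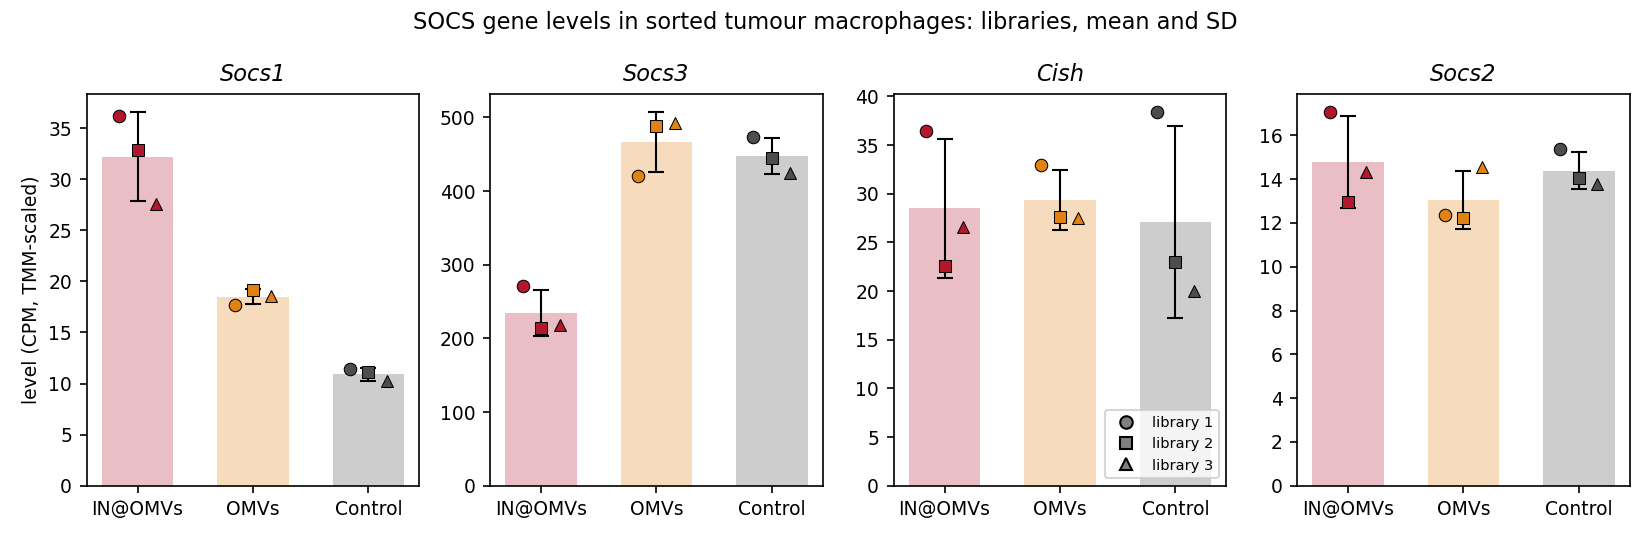
Level of the 4 members in CPM (vertical axes, each from 0) in IN@OMVs, OMVs and Control; bars are means, error bars SD, and symbols the 3 libraries of a group. Socs1 steps down across the 3 groups, Socs3 is low in the 3 IN@OMVs libraries, and Cish is highest in the library numbered 1 of each group.

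Most neutrophil and monocyte marker genes were lower in IN@OMVs, as Socs3 was. The summed level of 10 neutrophil markers, among them S100a8, S100a9 and Ly6g, was 130 to 197 CPM in IN@OMVs, 564 to 749 CPM in OMVs and 789 to 1159 CPM in Control. In IN@OMVs 9 of the 10 were called lower, both against Control and against OMVs, and none was called by edgeR in OMVs against Control, where 5 had an unadjusted p below 0.05. S100a8 averaged 16.1 ± 3.53 CPM in IN@OMVs and 216 ± 39.5 CPM in Control (SD, n = 3 each), and the granule gene Ngp was at 0 in IN@OMVs 3. The 7 monocyte markers summed to 970 to 1171 CPM in IN@OMVs, 1339 to 1521 CPM in OMVs and 1711 to 2030 CPM in Control, and 5 of the 7 were called lower in IN@OMVs against Control and 3 of the 7 against OMVs. The monocyte marker Ly6c2 had log2 changes of 0.39 ± 0.23 against Control and 0.35 ± 0.23 against OMVs (SE; edgeR adjusted p = 0.394 and 0.564). In OMVs against Control the median log2 change was -0.44 for the neutrophil and -0.38 for the monocyte markers, and Hp, the haptoglobin gene, was the 1 marker of these lists called, at -0.68 ± 0.09 (SE; edgeR adjusted p = 0.0245). None of the 10 macrophage markers was called by edgeR in any comparison (4, 0 and 2 at an unadjusted p below 0.05 in IN@OMVs against Control, OMVs against Control and IN@OMVs against OMVs), and their sum ran from 8464 to 12896 CPM. Those markers did not move in 1 direction. Itgam was lower in IN@OMVs, at -0.50 ± 0.13 against Control and -0.42 ± 0.13 against OMVs (SE, edgeR adjusted p = 0.0512 and 0.147). Fcgr1, C1qb and C1qc had log2 changes of 0.36 ± 0.15, 0.42 ± 0.17 and 0.49 ± 0.17 against Control (SE, edgeR adjusted p = 0.210, 0.221 and 0.143). C1qc stood at 0.39 ± 0.17 against OMVs, with overlapping libraries (SE, edgeR adjusted p = 0.343). The 8 fibroblast markers summed to 1452 to 4598 CPM in IN@OMVs, 3342 to 4401 CPM in OMVs and 4136 to 5642 CPM in Control. None was called in any comparison, and their median log2 change was -0.48 in IN@OMVs against Control. In OMVs libraries the neutrophil sum was lower than in every Control library while Socs3 overlapped Control. In bulk RNA a smaller number of cells of a type and less RNA per cell cannot be told apart, and the part of these cells in the Socs3 result was not tested.

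**Figure D2:**
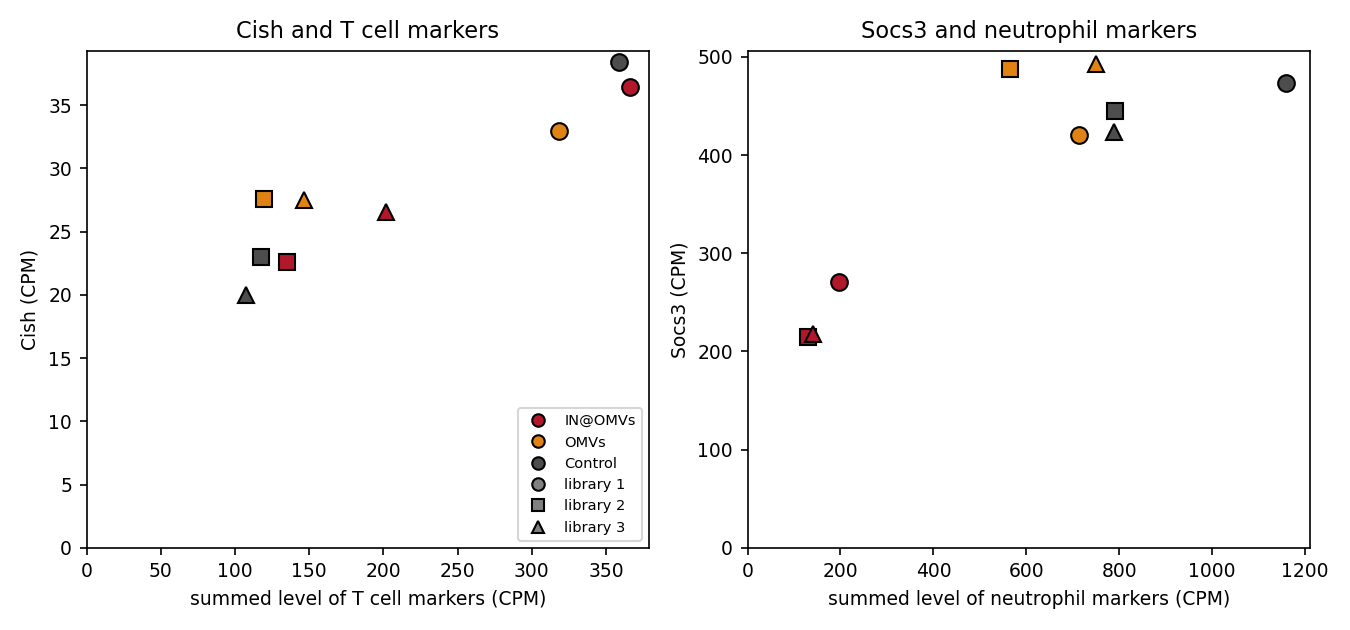
Left, Cish in CPM (vertical axis) against the summed CPM of the T cell markers (horizontal axis); right, Socs3 in CPM against the summed CPM of the neutrophil markers; each symbol is 1 library. The 3 libraries numbered 1 stand at the upper right on the left, and the 3 IN@OMVs libraries at the lower left on the right.

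The ratio of Socs3 to Socs1 CPM within each library joins the changes given above and is not separate evidence of them. The 2 changes were opposite in IN@OMVs, while in OMVs against Control only Socs1 was called. The ratio was 7.47, 6.54 and 7.89 in the IN@OMVs libraries, 23.8, 25.4 and 26.5 in the OMVs libraries, and 41.6, 39.8 and 41.6 in the Control libraries, so the groups did not overlap. The log2 ratio was taken after adding 1 CPM to each gene, so it is not the log of the ratios just given. Its mean was 2.83 ± 0.14 in IN@OMVs and 5.23 ± 0.03 in Control (SD, n = 3 each), a difference of -2.41 (exact permutation p = 0.1, two-sided). In OMVs it was 4.58 ± 0.08 (SD, n = 3), -0.65 from Control, and IN@OMVs stood -1.76 from OMVs (exact permutation p = 0.1 each, two-sided). With 3 libraries against 3, 0.1 is the smallest p this test can give. Without the added 1 CPM the log2 difference was -2.49 for IN@OMVs against Control and -0.70 for OMVs against Control. It was -1.79 for IN@OMVs against OMVs. The ratio compares the change of the 2 genes and not their abundance, since neither is scaled by length.

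**Figure D3:**
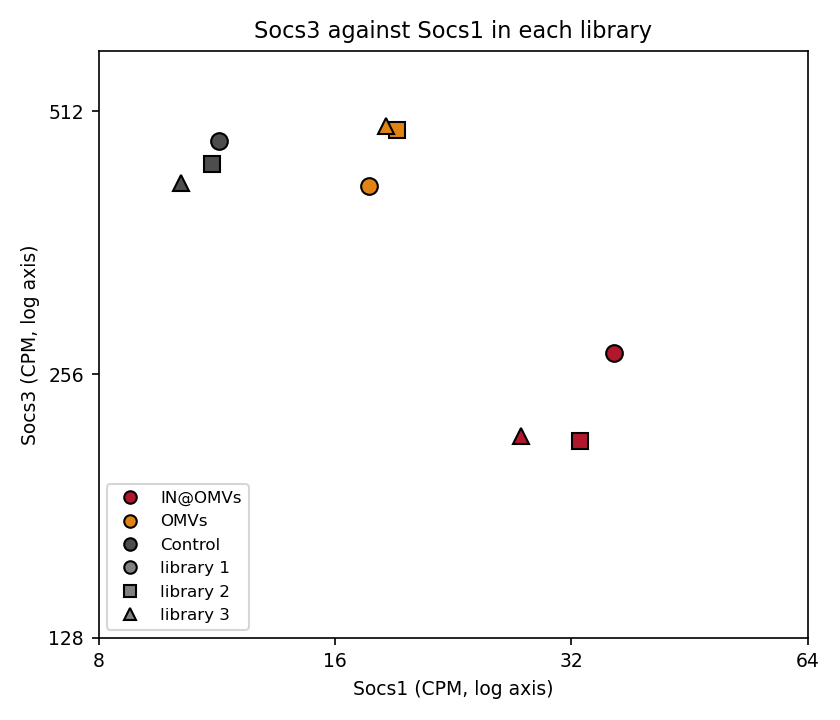
Socs3 (vertical) against Socs1 (horizontal) in CPM, both on log axes, 1 symbol per library. The IN@OMVs libraries lie at high Socs1 and low Socs3, the Control libraries at low Socs1 and high Socs3, and the OMVs libraries at the Socs3 level of Control with Socs1 of 17.7 to 19.2 CPM.

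Cish, a STAT5 target whose protein CIS binds STAT5-activating receptors, did not pass the test in any comparison. It measured 36.5, 22.6 and 26.5 CPM in IN@OMVs, 33.0, 27.6 and 27.5 CPM in OMVs, and 38.4, 23.0 and 19.99 CPM in Control, and the groups overlapped. In each group the library numbered 1 was the highest. The log2 change was 0.07 ± 0.25 for IN@OMVs against Control (SE; -0.50 to 0.64; edgeR adjusted p = 0.917), 0.11 ± 0.25 for OMVs against Control (-0.45 to 0.68; adjusted p = 0.988) and -0.04 ± 0.25 for IN@OMVs against OMVs (-0.61 to 0.52; adjusted p = 0.969). The summed level of the 13 T cell markers that were rows of the table, of 15 listed, was also highest in the library numbered 1 of each group. It was 366, 135 and 202 CPM in IN@OMVs, 318, 120 and 146 CPM in OMVs, and 359, 117 and 107 CPM in Control, and Cd3d, a subunit of the T cell receptor complex, was above 0 in all 9 libraries. Without the 3 libraries numbered 1 the Cish log2 change was 0.19, 0.36 and -0.17 in the same 3 comparisons, again with no call (adjusted p = 0.309, 0.141 and 0.412 by edgeR). The 7 natural killer (NK) cell markers had the same order, highest in the library numbered 1 of each group. They summed to 105, 44.8 and 63.3 CPM in IN@OMVs, 79.6, 26.7 and 29.0 CPM in OMVs, and 96.9, 26.0 and 24.1 CPM in Control. The part of T cells or NK cells in the Cish values was not tested.

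Socs2, a brake on growth hormone signalling, did not pass the test in any comparison. It measured 17.1, 12.9 and 14.3 CPM in IN@OMVs, 12.4, 12.2 and 14.6 CPM in OMVs, and 15.4, 14.0 and 13.8 CPM in Control. The 3 groups overlapped. The log2 change was 0.04 ± 0.12 for IN@OMVs against Control (SE; -0.24 to 0.32; edgeR adjusted p = 0.913), -0.14 ± 0.12 for OMVs against Control (-0.42 to 0.14; adjusted p = 0.89) and 0.18 ± 0.12 for IN@OMVs against OMVs (-0.10 to 0.46; adjusted p = 0.60).

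The other 4 family genes, Socs4, Socs5, Socs6 and Socs7, gave no call in any comparison by edgeR, DESeq2 or limma-voom, and 1 unadjusted p below 0.05. Their log2 changes ran from -0.03 to 0.15 in IN@OMVs against Control, from -0.13 to 0.09 in OMVs against Control and from -0.12 to 0.28 in IN@OMVs against OMVs. That p and the value of 0.28 ± 0.08 (SE) belonged to Socs6, which averaged 58.0 ± 5.37 CPM in IN@OMVs and 47.9 ± 1.20 CPM in OMVs (SD, n = 3 each; edgeR adjusted p = 0.119). Its libraries measured 52.7 to 63.4 CPM in IN@OMVs and 46.7 to 49.1 CPM in OMVs. Socs6 passed in 1 of 9 fits that left out 1 library, the one without IN@OMVs 1 (log2 change 0.34, edgeR adjusted p = 0.0162). The adjusted p in the others reached 0.318. The genes of the ligase that the SOCS box recruits, Cul5, Rnf7, Elob and Eloc, gave no call in any comparison by the same 3 tools, and no unadjusted p below 0.05.

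**Figure D4:**
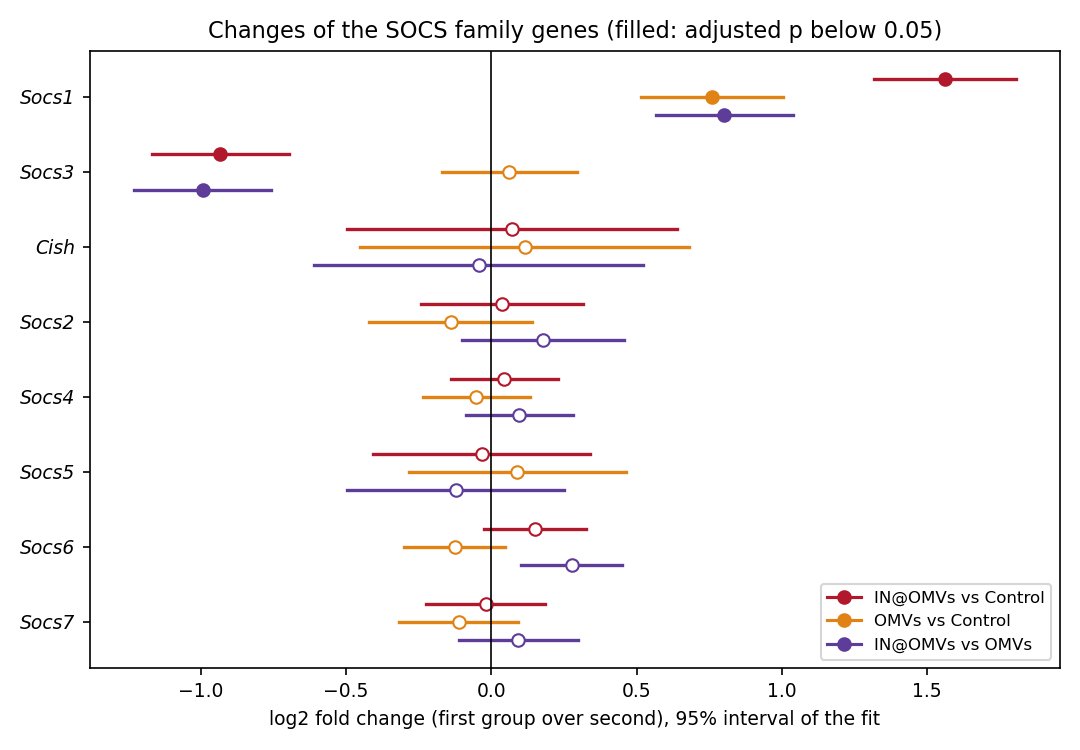
Log2 fold change of the 8 SOCS family genes (horizontal axis, first group over second) with its 95% interval in the 3 comparisons; filled points have an edgeR adjusted p below 0.05. Socs1 is filled on the right in all 3 comparisons and Socs3 on the left in both that involve IN@OMVs; the points of the other 6 genes are open.

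Per kilobase of the longest coding transcript, Socs3 was the most abundant family gene in all 3 groups, at 91.8 ± 12.3 CPM per kb in IN@OMVs, 183 ± 15.8 CPM per kb in OMVs and 175 ± 9.79 CPM per kb in Control (SD, n = 3 each). Socs1 was the lowest of the 8 in Control, at 3.75 ± 0.217 CPM per kb, beside Socs7 at 4.01 ± 0.285 (SD, n = 3 each), which its libraries overlapped. In IN@OMVs Socs1 reached 11.1 ± 1.49 CPM per kb and stood next to Socs3 in order, though Socs5 (10.6 ± 2.43), Cish (10.0 ± 2.51) and Socs6 (9.60 ± 0.889) lay within its spread. In OMVs Socs1, at 6.36 ± 0.258 CPM per kb, lay above Socs7 (3.71 ± 0.325) with no overlap and overlapped Socs2 (5.88 ± 0.593). The order of the genes depends on the length used, which was 2908 bases for Socs1. Shorter transcripts were not tried, and a shorter length would raise a gene's value.

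Of the cytokines that act through JAKs, 16 of 23 listed were tested. In IN@OMVs against Control 3 were lower and 1 higher (median log2 change -0.26), in OMVs against Control none was called (median 0.31), and in IN@OMVs against OMVs 3 were lower (median -0.58). The 3 that fell against either group were the same: Il6, Csf3 and Osm, 2 of them ligands of gp130-type receptors and Csf3 the gene of G-CSF. Il6 averaged 0.456 ± 0.248 CPM in IN@OMVs, 4.69 ± 0.878 CPM in OMVs and 5.33 ± 0.254 CPM in Control (SD, n = 3 each); the log2 change was -3.53 ± 0.34 (SE) against Control, with an edgeR adjusted p of 0.000564, on 3 to 10 counts in each IN@OMVs library. Csf3 averaged 0.664, 9.88 and 5.59 CPM in the same order (log2 change against Control -3.06 ± 0.25, edgeR adjusted p = 0.000231), and Osm, the oncostatin M gene, 49.4, 94.7 and 140 CPM (-1.50 ± 0.14, 0.000504). Il15, which signals through STAT5, rose to 18.7 ± 2.23 CPM in IN@OMVs, against 11.1 ± 1.23 CPM in Control (SD, n = 3 each; edgeR adjusted p = 0.00632). Ifng, the gene of interferon-γ and a well-known inducer of Socs1, measured 8.07, 1.43 and 3.78 CPM in IN@OMVs, 7.41, 0.933 and 2.93 CPM in OMVs, and 7.57, 1.46 and 1.04 CPM in Control, highest in the library numbered 1 of each group and with no call. Il10 was not called in any comparison in the fit of all 9 libraries. Without IN@OMVs 1 it was called lower in IN@OMVs against Control and against OMVs (edgeR adjusted p = 0.00875 and 0.0119). Without IN@OMVs 1 the number of ligands lower was 5 against Control and 6 against OMVs.

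Among 28 receptor genes tested, 3 were higher and 3 lower in IN@OMVs against Control (median -0.02), none was called in OMVs against Control, and 1 was higher and 2 lower in IN@OMVs against OMVs. Il12rb1, a subunit of the IL-12 and IL-23 receptors, averaged 32.9 ± 4.16 CPM in IN@OMVs and 11.9 ± 2.85 CPM in Control (SD, n = 3 each), a log2 change of 1.46 ± 0.16 (SE; edgeR adjusted p = 0.000885). Lepr, the leptin receptor on which SOCS3 acts, fell to 0.177 ± 0.0597 CPM in IN@OMVs, against 1.21 ± 0.269 CPM in Control (SD, n = 3 each, edgeR adjusted p = 0.0022). This rests on 2 to 4 counts in each IN@OMVs library and 18 to 26 in each Control library. Csf3r, the G-CSF receptor and 1 of the 10 neutrophil markers, averaged 90.8 CPM in IN@OMVs and 160 CPM in Control (log2 change -0.81 ± 0.15, edgeR adjusted p = 0.0158; 0.0692 without IN@OMVs 3 and 0.0577 without Control 1). Il6st, which encodes gp130, Il6ra, Il4ra and Ifngr1 were not called in any comparison in the fit of all 9 libraries. Without IN@OMVs 1, edgeR called Ifngr1 and Il4ra lower against Control (adjusted p = 0.00196 and 0.00345) and against OMVs (0.0124 and 0.00292). Il6ra was then called lower against Control (edgeR adjusted p = 0.00397). These calls passed in 1 of 9 fits that left out 1 library. In the fit of all 9 libraries the other receptors called against Control were Il15ra and Il7r, which rose, and Csf2rb, which fell. Il7r is also 1 of the T cell markers. Csf2rb had fractional counts in all 9 libraries and an edgeR adjusted p of 0.0658 with a replicate block. With 1 library left out, the Csf2rb call passed in 1 of 9 fits (adjusted p 0.00196 without IN@OMVs 1, 0.0577 to 0.150 in the others), and the Csf3r call against OMVs in 2 of 9. Without Control 3 the number higher against Control was 1, and the number lower was 1 without IN@OMVs 3 or without Control 1 and 8 without IN@OMVs 1. The number lower against OMVs was 1 without IN@OMVs 2, IN@OMVs 3, Control 2, Control 3 or any 1 OMVs library, and 6 without IN@OMVs 1; the 1 higher against OMVs, Il12rb1, was called in 2 of 9 fits that left out 1 library.

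Among 11 JAK and STAT genes tested, edgeR called 2 higher in IN@OMVs against Control and 1 higher in IN@OMVs against OMVs. It called none in OMVs against Control, where 2 had an unadjusted p below 0.05 and DESeq2 called 1. Stat2, which works downstream of the type I interferon receptor, was 1 of the 2 that rose in IN@OMVs against Control. It averaged 254 ± 28.9 CPM in IN@OMVs, 178 ± 8.06 CPM in OMVs and 147 ± 0.258 CPM in Control (SD, n = 3 each), with log2 changes of 0.79 ± 0.08 against Control and 0.52 ± 0.08 against OMVs (SE; edgeR adjusted p = 0.000628 and 0.00949). Jak2, Stat3, Stat5a and Stat6 lay between -0.14 and 0.01 in IN@OMVs against Control, with no call in the fit of all 9 libraries. Without IN@OMVs 1, Stat6 was called lower there, at -0.19 (edgeR adjusted p = 0.0497). Of 12 other brakes on these pathways, among them the phosphatases Ptpn1, Ptpn2 and Ptpn6, edgeR called only Usp18 in IN@OMVs against Control. Usp18, which restrains the type I interferon receptor, averaged 67.9 ± 14.0 CPM in IN@OMVs and 37.4 ± 0.293 CPM in Control (SD, n = 3 each, edgeR adjusted p = 0.00397). DESeq2 called 3 of the 12 there, and 3 had an unadjusted p below 0.05 by edgeR.

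**Figure D5:**
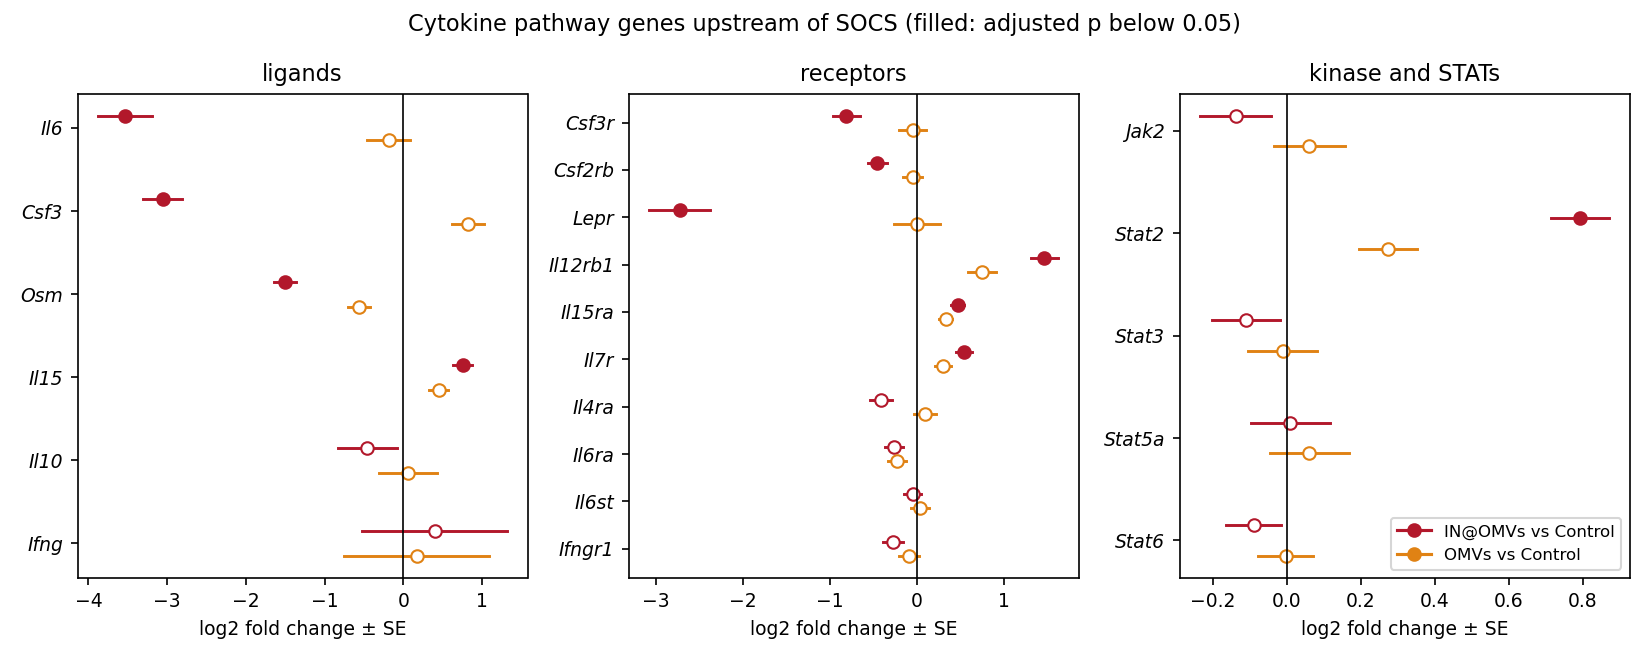
Log2 fold change ± SE (horizontal axes) of cytokine ligands, receptors, and a kinase and STATs for IN@OMVs against Control (red) and OMVs against Control (orange); filled points have an edgeR adjusted p below 0.05. Il6, Csf3, Osm and Lepr lie far to the left for IN@OMVs, Il12rb1 and Stat2 to the right, and every OMVs point is open.

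Target genes of cytokine signalling were counted by list. Of 20 interferon-γ targets, 19 were higher in IN@OMVs against Control (median log2 change 0.99), 11 in OMVs against Control (median 0.54) and 12 in IN@OMVs against OMVs (median 0.46), and none was lower. Iigp1, an immunity-related GTPase, averaged 563 ± 31.7 CPM in IN@OMVs, 307 ± 39.5 CPM in OMVs and 177 ± 3.34 CPM in Control (SD, n = 3 each; log2 change against Control 1.67 ± 0.09, edgeR adjusted p = 3.69e-05 for IN@OMVs). The OMVs count was 1 in the fit with a replicate block, 0 in the fits without IN@OMVs 3, OMVs 2, OMVs 3, Control 2 or Control 3, 3 without Control 1, and 18 without the 3 libraries numbered 1; the IN@OMVs against OMVs count was 7 without IN@OMVs 3 or without OMVs 1. In OMVs against Control, edgeR and limma-voom called none of the ligands, receptors, STAT3 targets or STAT5 targets. DESeq2 called 1 ligand, 2 receptors, 0 STAT3 targets and 1 STAT5 target there, and the number at an unadjusted p below 0.05 was 4, 5, 2 and 3 in the same order.

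Of 15 STAT3 targets, 4 were lower and 1 higher in IN@OMVs against Control (median -0.29), none was called in OMVs against Control, and 4 were lower and 1 higher in IN@OMVs against OMVs (median -0.47). Saa3, an acute phase protein gene, averaged 6.16 ± 1.57 CPM in IN@OMVs, 435 ± 89.7 CPM in OMVs and 537 ± 83.8 CPM in Control (SD, n = 3 each; log2 change against Control -6.44 ± 0.25, edgeR adjusted p = 5.88e-06 for IN@OMVs). Junb, an AP-1 subunit, and Nfil3, a leucine zipper repressor, had log2 changes of -0.77 ± 0.09 and -0.79 ± 0.12 against Control (edgeR adjusted p = 0.00113 and 0.0046). Fgl2, a fibrinogen-like protein gene, moved the other way, at 0.99 ± 0.13 (edgeR adjusted p = 0.00265). Without IN@OMVs 1 the number lower was 9 against Control and 10 against OMVs.

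Of 11 STAT5 targets, 3 were higher and 1 lower in IN@OMVs against Control, and none was called in OMVs against Control. The cyclin gene Ccnd2 rose by 0.48 ± 0.08 on the log2 scale (SE; edgeR adjusted p = 0.00592), and the gene that fell was Osm, which is also in the ligand list. The count of 3 was 1 in fits without IN@OMVs 2, IN@OMVs 3 or any 1 Control library. Of 9 STAT6 targets, 2 were higher and 1 lower in IN@OMVs against Control (median log2 change 0.32). In OMVs against Control 1 was higher and 2 were lower (median -0.57), and 6 were higher in IN@OMVs against OMVs (median 0.93). The last comparison therefore includes the lower median in OMVs as well as the higher one in IN@OMVs. Pdcd1lg2, the gene of PD-L2, averaged 36.4 ± 4.41 CPM in IN@OMVs and 9.12 ± 1.98 CPM in Control (SD, n = 3 each; edgeR adjusted p = 0.000234). Chil3, a chitinase-like lectin gene, averaged 127.6 CPM in IN@OMVs and 337 CPM in Control (log2 change -1.40 ± 0.15, edgeR adjusted p = 0.000869). The STAT6 count higher in OMVs against Control was 0 with a replicate block. Both STAT6 counts in that comparison were 0 in the fits without IN@OMVs 3, OMVs 2, OMVs 3, Control 2 or Control 3, and the count of 6 was 3 without IN@OMVs 3 or without OMVs 1.

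The genes whose levels followed each member most closely over the 9 libraries were ranked by Pearson r of log2(CPM + 1) among 10543 genes with a mean of at least 5 CPM; the libraries are shared by all genes and fall into 3 groups, so r is a description. Closest to Socs1 were Tgtp2 (r = 0.991), Batf2, Tap2, Dynll1 and Irgm1, of which Tgtp2 and Irgm1 are interferon-inducible GTPases and Tap2 a peptide transporter subunit. The most opposite were Cdkn2d (r = -0.997), a cyclin-dependent kinase inhibitor, and Scfd2. Closest to Socs3 were the chemokine genes Cxcl2 (r = 0.996) and Cxcl3, the cytokine gene Il1b (r = 0.991), St3gal1 and Gab1, and the most opposite were Gabarapl1 (r = -0.986), Dbp and Axl. Cxcl2 averaged 155 ± 26.7 CPM in IN@OMVs, 411 ± 21.2 CPM in OMVs and 385 ± 36.2 CPM in Control (SD, n = 3 each). Taken as deviations from the group means, r was 0.93 for Socs3 with Cxcl2, 0.67 for Socs1 with Tgtp2 and -0.93 for Socs1 with Cdkn2d. Socs1 and Socs3 themselves had r = -0.78 over the 9 libraries and 0.75 as deviations from the group means.

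Closest to Cish were Arid5a (r = 0.960), Nelfb, Ltb, Il12rb2 and Cd3d (r = 0.933), and the most opposite were Mad2l1, Hnrnpu and Mtx3. Ltb encodes a lymphotoxin subunit and Il12rb2 a subunit of the IL-12 receptor. Without the 3 libraries numbered 1, r with Cd3d was 0.665 and r with Arid5a 0.897. Closest to Socs2 were Atf6 (r = 0.972), Pag1, Rnaset2a, Wdfy4 and Arpc2, and the most opposite were Utp20 (r = -0.983), Hdgfl2 and Troap.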

How the data were processed

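RNA was measured in 9 libraries, 3 each of IN@OMVs, OMVs and Control. The authors deposited 1 table of expected counts per gene symbol; BWA, Bowtie2, RSEM and the builds mm9 and hg19 are named per the submitters' processing notes, with roles and versions not given in the sources used here. 2858 genes had a fractional value; the 4 members had whole counts throughout. Counts were rounded and normalised by TMM, low genes were removed with filterByExpr, and edgeR 4.0.16 (R 4.3.3) fitted a quasi-likelihood model of 3 groups to all 9 libraries, which share 1 estimate of the spread (biological coefficient of variation 0.131). P-values were adjusted by Benjamini-Hochberg over 13090 genes with a threshold of 0.05; SE is the log2 change over the square root of F. Procedures were tested on simulated data. CPM use TMM-scaled library sizes. Length per gene is that of the longest coding transcript in GENCODE M21, and promoters are RefSeq's.

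The 4 members and all gene lists were chosen with earlier results of these data known. Genes named from a list are the 4 of smallest p among those called in a comparison, plus a preset group of cytokines, receptors, kinases, STATs and SOCS genes; S100a8, Ngp and Ly6g come from the marker list. Other settings were DESeq2 1.42.0, limma-voom (limma 3.58.1), other scaling and filters, the replicate number as a block, only the 2 groups compared, leaving out each library and leaving out the libraries numbered 1. The labels give the groups the same replicate numbers and not what a number shares. Same-numbered libraries deviated together against Control (r = 0.44, 0.33 and 0.17 for IN@OMVs and r = 0.55, 0.41 and 0.12 for OMVs). Between the vesicle groups they did not (-0.02, 0.58 and -0.48). Each same-number r against Control was over 0.1, and the fit with a replicate block treated same-numbered libraries as pairs. The main fit and the permutation test did not pair libraries, so their p-values are unpaired. Some differently numbered libraries correlated as strongly (r = 0.35 between IN@OMVs 2 and Control 3, r = 0.32 between IN@OMVs 3 and Control 2, r = 0.41 between OMVs 2 and Control 3, but r = 0.051 between OMVs 3 and Control 2), so the pairing is an assumption. Replicate libraries differed by more than counting noise (chi-square over its degrees of freedom 2.07 to 42.1); IN@OMVs 1 stood apart from IN@OMVs 2 and 3 (42.1 and 34.8, against 3.70 between those). Its fibroblast markers summed to 1452 CPM, against 3342 to 5642 CPM in the other 8 libraries. Some genes of the pathway lists are not reported here.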

Additional observations from a re-analysis of the deposited data

How the results depend on the processing

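The calls of Socs1 and Socs3 in IN@OMVs, against Control and against OMVs, and the lack of a call for Socs2 and Cish held under every setting run. For Socs1 in OMVs against Control the log2 change was 0.76 with limma-voom and 0.76 with the replicate block, neither past the threshold, and 0.71 to 0.79 with 1 library left out. Of the members' other-setting values, 185 kept direction and side of the threshold, 10 lost the call and 9 changed sign. For the named pathway genes these numbers were 1629, 119 and 50, and 37 gained a call; of the counts, 925 stayed within 1.5 times and 170 did not. The genes called in IN@OMVs against Control, 858 in all, were 519 with only the 2 groups compared, 1475 without the libraries numbered 1 and 393 to 1635 with 1 library left out. In OMVs against Control the 55 were 207 with DESeq2, 36 with limma-voom, 20 with the replicate block, 115 with only the 2 groups, 313 without the libraries numbered 1 and 0 to 266 with 1 left out. In IN@OMVs against OMVs the 373 were 646 with DESeq2, 195 with only the 2 groups, 844 without the libraries numbered 1 and 180 to 786 with 1 left out. The highest counts with 1 library left out were those without IN@OMVs 1.

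The changes of sign were all of values with no call. Without the libraries numbered 1 the log2 change against Control in IN@OMVs was -0.031 for Socs2, 0.12 for Socs5, -0.043 for Stat5a and 0.040 for Il6st; in OMVs it was 0.022 for Socs4, 0.085 for Stat3, 0.028 for Stat6, -0.00020 for Il6st, 0.056 for Csf2rb and 0.089 for Csf3r. Between the vesicle groups it was 0.063 for Socs5, -0.029 for Socs7 and 0.040 for Il6st. A filter at a mean of 5 CPM gave -0.0092 for Stat5a in IN@OMVs against Control. With 1 library left out, the range in IN@OMVs against Control was -0.15 to 0.41 for Cish, -0.083 to 0.12 for Socs2, -0.15 to 0.14 for Socs5, -0.081 to 0.040 for Socs7, -2.31 to 0.028 for Csf2, -0.37 to 1.81 for Ifng, -0.14 to 0.059 for Il6st and -0.10 to 0.10 for Stat5a. In OMVs against Control it was -0.063 to 0.45 for Cish, -0.10 to 0.038 for Socs4, -0.011 to 0.19 for Socs5, -0.79 to 1.59 for Ifng, -0.021 to 0.15 for Il10, -0.12 to 0.0050 for Csf2rb, -0.11 to 0.077 for Csf3r, -0.0033 to 0.18 for Il4ra, -0.0050 to 0.090 for Il6st, -0.064 to 0.054 for Stat3, -0.020 to 0.11 for Stat5a and -0.021 to 0.023 for Stat6. Between the vesicle groups it was -0.26 to 0.10 for Cish, -0.24 to 0.054 for Socs5, -0.53 to 1.19 for Ifng, -0.17 to 0.036 for Il6ra, -0.17 to 0.025 for Il6st and -0.15 to 0.038 for Stat5a. The cause was not tested. Each IN@OMVs library held 3 to 10 counts of Il6, 9 to 14 of Csf3, 2 to 4 of Lepr and 0 to 7 of Csf2. Counting error limits the values of Il6, Csf3, Lepr and Csf2. Ifng reached 127 to 131 reads in every library numbered 1, while the remaining libraries had 16 to 65. Its values therefore depend on which library is left out, and the reason for this spread was not tested.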
